A study of Mus musculus with 18 samples.

Results

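The axonemal genes of motile cilia were described in the cortex of mouse embryos that lacked Dmrt3, Dmrt5 or both. They were protein-coding genes whose symbol starts with Cfap, Dnah, Dnai, Drc, Rsph or Tekt followed by a digit and which held 10 or more counts in at least 4 of the 18 libraries. Of 60 protein-coding genes with such a symbol among the 38355 genes of the count tables, 49 met this rule and are called members here. All 49 were tested. The counts that chose the members are the same counts as those compared below, so a member that is high in some genotypes could enter through those genotypes. Levels, counts and medians over the members are therefore given as descriptions.

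The genotypes were Dmrt3 KO (Dmrt3-/-, 5 libraries), Dmrt5 KO (Dmrt5-/-, 4 libraries), double KO (Dmrt3-/-;Dmrt5-/-, 5 libraries) and WT (4 libraries). All embryos were of the C57BL/6 strain at stage E12.5, in mid-gestation, and total RNA came from dissected cortical tissue. Dmrt3 and Dmrt5 are DNA-binding factors of the doublesex family that pattern the dorsal telencephalon, and the present symbol of Dmrt5 is Dmrta2. The labels do not give how the null alleles were made, nor whether a library held 1 embryo or a pool, so the p-values measure the spread between these libraries, which may be technical.

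The axoneme is the microtubule core of a cilium. In motile cilia it carries outer and inner dynein arms, the motors that slide neighbouring doublets, together with the nexin-dynein regulatory complex, the radial spokes and a central pair of microtubules that pattern the beat. Tektins and other microtubule inner proteins line the doublets. In the developing forebrain, motile cilia are best known from choroid plexus epithelium and, later, from ependymal cells, whereas cortical progenitors carry a single primary cilium without dynein arms. Foxj1, Mcidas and Gmnc are regulators of the programme for motile cilia, and RFX factors bind an X-box in promoters of many ciliary genes.

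Libraries held between 19602718 and 33072896 counts. Levels are given as CPM, counts scaled to the size of the library, and levels of different genes are compared only as RPKM, which is CPM per kilobase of exon. Dmrt3 stood at 0.232 to 0.398 CPM in Dmrt3 KO and 0 to 0.383 CPM in the double KO, against 52.0 to 61.8 CPM in WT. Dmrta2 stood at 4.31 to 25.1 CPM in Dmrt5 KO and 1.66 to 4.90 CPM in the double KO, against 159 to 220 CPM in WT. The summed level of 7 markers of radial glia, the progenitors of the cortex, ran between 4044 and 4751 CPM in Dmrt3 KO, 4325 and 5125 CPM in Dmrt5 KO, 3890 and 5185 CPM in the double KO, and 3299 and 4829 CPM in WT. Neuron markers summed to 3969 ± 806 CPM in Dmrt3 KO, 4542 ± 819 CPM in Dmrt5 KO and 4815 ± 1354 CPM in the double KO, against 3141 ± 311 CPM in WT (SD). Mesenchyme markers had a median sum of 989 CPM in Dmrt3 KO, 576 CPM in Dmrt5 KO and 160 CPM in the double KO, against 1163 CPM in WT, with ranges that overlapped. No neuron or mesenchyme marker was called against WT, and the part of these cells in the results was not tested. WT replicate 2 was the lowest WT library for 27 of the 49 members and for 8 of the 11 Dnah members, against 38.4% of all tested genes. Dmrt3 KO replicate 5 was the lowest Dmrt3 KO library for 28 members, against 18.4% of all tested genes. The slope of log2 level on gene length ran between -0.15 in WT replicate 2 and 0.26 in double KO replicate 5, and the calls were also made with each library left out and with this slope as a covariate.

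Promoter letters are shown first for members that hold an X-box, since 3 of them (Cfap206, Cfap44 and Cfap45) are among those that fell in the results that follow. Windows from 250 bases before to 50 bases after each start were read from RefSeq (GRCm38.p6), which had an entry for 41 of the 49 members. The X-box was searched on both strands as GTNNCC and GNAAC with 3 free bases between. It was present for 7 of 41 members (17.1%), among them 3 of the 10 members that fell and have an entry, and for 673 of all 27025 genes with an entry (2.49%). The Cfap206 promoter lies at chr4:34730207-34730456 on the minus strand, the Cfap44 promoter at chr16:44394549-44394798 on the plus strand, and each is printed 5′ to 3′ as the 250 bases that end just before the start, with the X-box in capitals. The X-box began 23 bases before the start of Cfap206 and 27 bases before that of Cfap44. Both match the motif on the strand opposite to the one printed.
Cfap206: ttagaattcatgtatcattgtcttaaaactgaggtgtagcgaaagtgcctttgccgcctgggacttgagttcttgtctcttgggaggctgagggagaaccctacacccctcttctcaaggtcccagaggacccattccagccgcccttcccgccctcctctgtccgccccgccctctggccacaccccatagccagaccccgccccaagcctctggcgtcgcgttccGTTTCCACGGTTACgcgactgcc
Cfap44: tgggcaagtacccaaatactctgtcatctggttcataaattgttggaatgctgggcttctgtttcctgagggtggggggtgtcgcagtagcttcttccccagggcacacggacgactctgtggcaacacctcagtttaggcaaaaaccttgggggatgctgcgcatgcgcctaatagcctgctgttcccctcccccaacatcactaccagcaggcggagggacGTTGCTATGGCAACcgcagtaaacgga

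The other matches are shown as 30-base sites so that the X-boxes of a member that fell, Cfap45, and of members that were not called can be read side by side. They lie at chr1:172521103-172521132 (Cfap45, plus strand), chr16:90935016-90935045 (Cfap298, minus), chr2:145934768-145934797 (Cfap61, plus), chr11:118129357-118129386 (Dnah17, minus), chr17:25471422-25471451 and chr17:25471582-25471611 (both Tekt4, plus).
Cfap45: gttcttggGTTGCTATGGTAACgcgtcagc
Cfap298: gggttttgGTTGCCCGGGCAACagctactt
Cfap61: gccgcgtcGTTTCCTTAGCAACtgtgtgcg
Dnah17: acgcccttGTCACCAGCGCAACcacagata
Tekt4 upstream site: ccccacctGTGTCCTGGGAAACaaactcat
Tekt4 site at the start: tatacaatGTTCCTTAGGCAACcaggaacc
The forkhead motif GTAAACA was present for 3 of 41 members (7.32%) and 4.05% of all genes, and the DMRT core ACANTGT for 4 of 41 members (9.76%) and 8.62% of all genes. The DMRT core match of Tekt4 overlaps its site at the start. The X-box of Cfap45 and that of Tekt4 at its start match on the strand opposite to the one printed. The Cfap298 match reads on both strands, and the other X-boxes match as printed. These matches describe letters in a window and show no binding.

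The members covered a wide range of levels. Cfap298, a factor of dynein arm assembly, averaged 22.9 RPKM over the 18 libraries. Cfap36 averaged 22.3 RPKM and Cfap20, a microtubule inner protein, 20 RPKM. Cfap300, another dynein assembly factor, averaged 7.97 RPKM, and Rsph9, a radial spoke head protein, 6.68 RPKM. In all, 12 members averaged 1 RPKM or more, and 37 lay under 1 RPKM, down to 0.0339 RPKM for Dnah5, an outer arm heavy chain. The members nearest the rule's threshold on the inside were Cfap161 and Drc7, with 10 or more counts in 6 libraries each, and Dnah6, Tekt4 and Cfap77, with 7 libraries each. Just outside lay Cfap299 and Dnah3, with 3 libraries each, and Cfap58 and Cfap73, with 2. The remaining 7 genes outside, Cfap221, Cfap97d1, Dnah12, Dnah14, Rsph14, Rsph6a and Tekt3, reached 10 counts in no library.

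Across the genotypes, 13 of the 49 members fell in Dmrt5 KO, the double KO or both. A gene is called at a Benjamini-Hochberg adjusted p under 0.05 in edgeR's quasi-likelihood test over 16236 genes, and only called genes are said to rise or fall. In Dmrt5 KO 6 members fell and 0 rose, where 0.69% of all tested genes were called lower and 0.339% higher. In the double KO 12 members fell and 0 rose, where 3.81% of all genes were called lower and 2.42% higher. In Dmrt3 KO 0 members were called, where 0.00616% of all genes were called in each direction. Of the 13 members, 5, Cfap52, Cfap65, Dnah6, Drc7 and Rsph4a, fell in both genotypes. The comparisons share their WT libraries. The median log2 fold change of the 49 members was -0.05 for Dmrt3 KO, -0.52 for Dmrt5 KO and -0.30 for the double KO, beside -0.00, -0.02 and 0.01 over all tested genes. Over the 22 members with a mean count of at least 50 the medians were 0.07, -0.17 and -0.08. The 6 that fell in Dmrt5 KO are not among these 22. Without WT replicate 2 the double KO median of all 49 was -0.46. In bulk tissue, fewer cells of a type and less RNA per cell cannot be told apart.

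**Figure D1:**
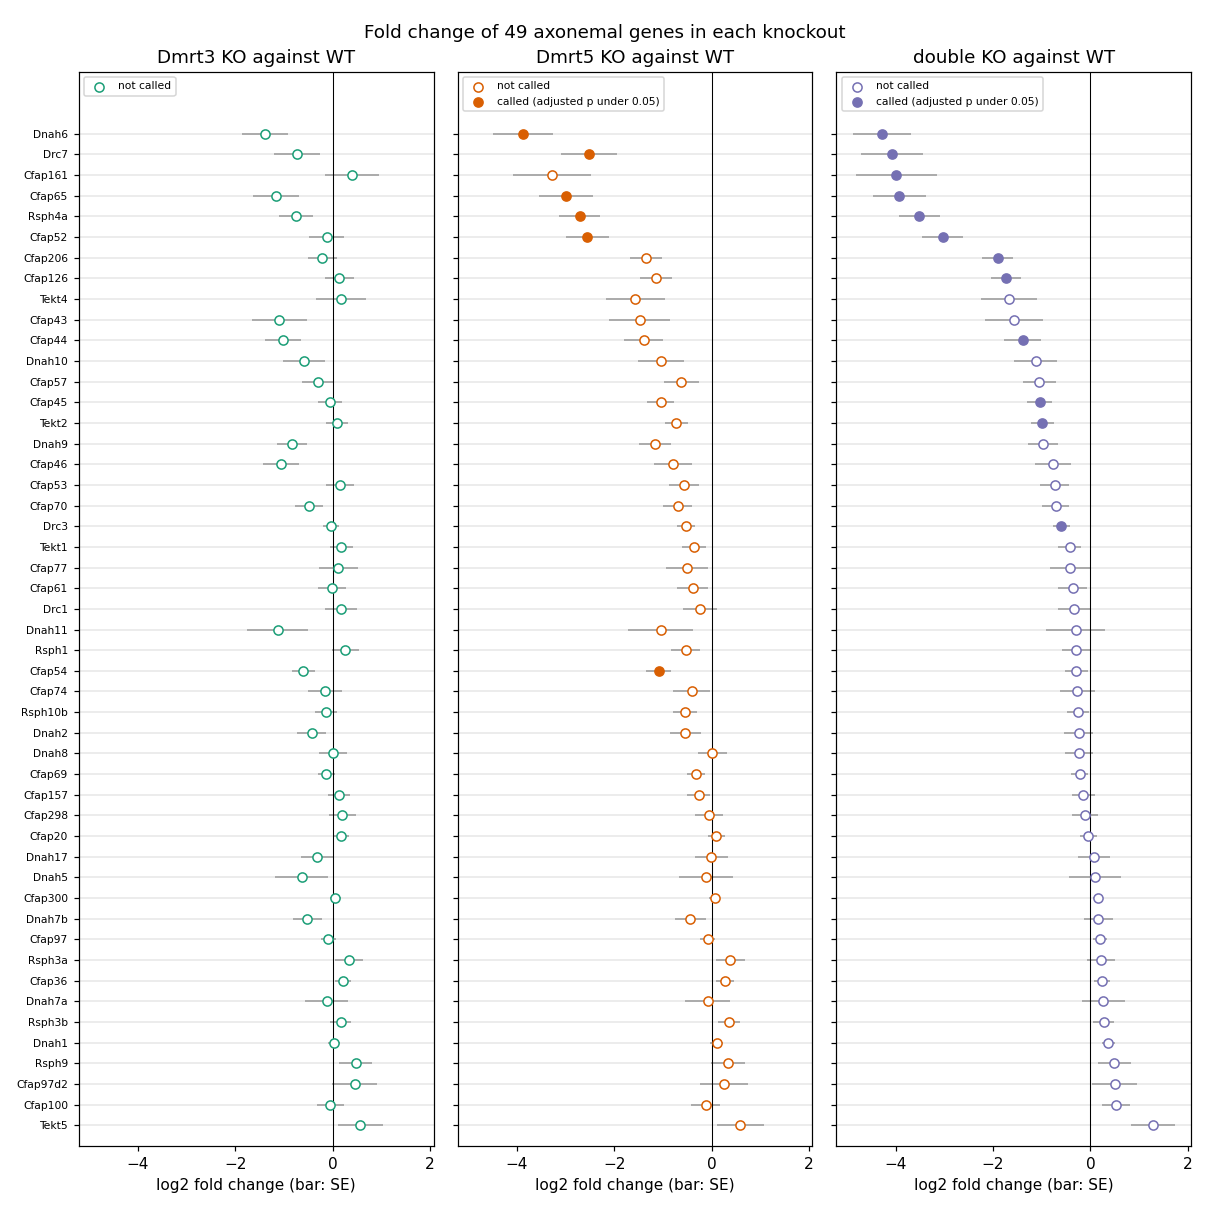
Log2 fold change against WT (x axis, bar: SE) of each of the 49 members (rows, ordered by the double KO value) in Dmrt3 KO, Dmrt5 KO and the double KO. Filled points are called genes: 0 for Dmrt3 KO, 6 for Dmrt5 KO and 12 for the double KO, each left of 0.

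Among inner dynein arm chains, Dnah6 had the lowest log2 fold change of all members in both Dmrt5 KO and the double KO. Dnah6 (ENSMUSG00000052861, chr6:73017606-73221651, mm10) held 0.526, 0.575, 0.426, 0.892 and 0.345 CPM in Dmrt3 KO, 0.0989, 0.0415, 0.0797 and 0.15 CPM in Dmrt5 KO, 0.147, 0, 0, 0.17 and 0.039 CPM in the double KO, and 1.78, 0.427, 1.69 and 1.88 CPM in WT. Every Dmrt5 KO and double KO library lay below every WT library, although WT replicate 2 stood near the Dmrt3 KO libraries. In edgeR's test the log2 fold change was -3.87 ± 0.62 in Dmrt5 KO (SE, adjusted p = 0.00502) and -4.28 ± 0.60 in the double KO (adjusted p = 0.000261). These rested on 10 counts in all Dmrt5 KO libraries and 8 in all double KO libraries, against 166 in WT. The pooled ratio to WT was 0.0626 in Dmrt5 KO (95% counting interval 0.0295 to 0.118) and 0.0451 in the double KO (0.0192 to 0.0910), and such intervals cover counting error only. Dnah6 entered through 3 WT and 4 Dmrt3 KO libraries and had 10 counts in no other library. In Dmrt3 KO its log2 fold change was -1.39 ± 0.47 with an unadjusted p of 0.00864 and an edgeR adjusted p of 0.53.

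The other inner arm chains were not called. Dnah1, the most abundant dynein heavy chain among the members at 1.39 RPKM, held 18.7, 18.5, 20.9, 21.3 and 26.8 CPM in the double KO, against 14.7, 16.6, 17.4 and 17.1 CPM in WT. The double KO libraries of Dnah1 all lay above those of WT, with a log2 fold change of 0.37 ± 0.13 and an edgeR adjusted p of 0.106. Dnah1 was the only member higher in every double KO library than in every WT library, where 2.57% of all tested genes were, and DESeq2 called it (log2 fold change 0.38, adjusted p = 0.0314). Dnah2 averaged 3.14 ± 0.77 CPM in Dmrt3 KO, 2.90 ± 0.53 CPM in Dmrt5 KO, 3.58 ± 1.29 CPM in the double KO and 4.21 ± 1.71 CPM in WT (SD, n = 5, 4, 5 and 4). Dnah7b averaged 3.88 ± 1.68 CPM in the double KO and 3.46 ± 1.34 CPM in WT, and its reads cannot be separated with confidence from those of its close paralog Dnah7a. Dnah2 and Dnah9 also share exon bases with opposite-strand genes.

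None of the 5 outer arm heavy chains (Dnah5, Dnah8, Dnah9, Dnah11 and Dnah17) was called in any comparison with WT by edgeR. Dnah9 averaged 1.4 ± 0.55 CPM in Dmrt3 KO, 1.11 ± 0.14 CPM in Dmrt5 KO, 1.27 ± 0.27 CPM in the double KO and 2.48 ± 0.93 CPM in WT. Its log2 fold change was -0.83 ± 0.31 in Dmrt3 KO (adjusted p = 0.623), -1.16 ± 0.33 in Dmrt5 KO (adjusted p = 0.124) and -0.98 ± 0.31 in the double KO (adjusted p = 0.0728), by edgeR. WT replicate 2, at 1.23 CPM of Dnah9, lay within the range of every KO genotype, and the other 3 WT libraries, at 2.33 to 3.26 CPM, lay above every KO library. DESeq2 called Dnah9 in both Dmrt5 KO (adjusted p = 0.0341) and double KO (adjusted p = 0.0336). Dnah11 held 1.14, 1.31 and 1.16 CPM in 3 WT libraries and 0.0534 CPM in WT replicate 2. Dnah17, a chain best known from sperm flagella, differed from WT by -0.31 (Dmrt3 KO), -0.00 (Dmrt5 KO) and 0.08 (double KO) on the log2 scale. Dnah17 shares exon bases with the opposite-strand genes Pgs1 and Gm11738, and Dnah11 with Cdca7l.

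Of the 6 radial spoke members, Rsph4a fell in both Dmrt5 KO and the double KO. Rsph4a (ENSMUSG00000039552, chr10:33905111-33916021), a protein of the spoke head, held 1.27, 1.94, 1.01, 1.23 and 0.733 CPM in Dmrt3 KO, 0.396, 0.332, 0.239 and 0.3 CPM in Dmrt5 KO, 0.391, 0.0913, 0.178, 0.128 and 0.117 CPM in the double KO, and 2.32, 0.907, 1.9 and 3.13 CPM in WT. All Dmrt5 KO and double KO libraries lay below all WT and all Dmrt3 KO libraries. Rsph4a had 10 or more counts in 4 WT, 5 Dmrt3 KO, 1 Dmrt5 KO and 0 double KO libraries. Rsph4a's log2 fold change was -2.71 ± 0.42 in Dmrt5 KO (adjusted p = 0.00377) and -3.52 ± 0.42 in the double KO (adjusted p = 5.12e-05), by edgeR. Rsph3a, of the spoke stalk, averaged 1.23 RPKM and was not called, and its reads may be shared with the near copy Rsph3b or the antisense gene E430024P14Rik. Rsph9, also of the spoke head, averaged 11.6 ± 3.1 CPM in Dmrt3 KO, 10.5 ± 3.5 CPM in Dmrt5 KO, 11.7 ± 4.9 CPM in the double KO and 8.39 ± 3.71 CPM in WT. Rsph1 averaged 4.85 ± 2.0 CPM in Dmrt3 KO, 2.80 ± 0.69 CPM in Dmrt5 KO, 3.29 ± 0.86 CPM in the double KO and 4.05 ± 0.94 CPM in WT. Neither Rsph9 nor Rsph1 was called, and their libraries overlapped between genotypes.

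In the nexin-dynein regulatory complex, which links neighbouring doublets, Drc7 fell in Dmrt5 KO and the double KO, and Drc3 fell in the double KO. Drc7 (ENSMUSG00000031786, chr8:95055103-95078141) held 0.701, 0.972, 0.31, 0.652 and 0.302 CPM in Dmrt3 KO, 0.198, 0.0415, 0.279 and 0.15 CPM in Dmrt5 KO, 0.0489, 0.0457, 0.089, 0.0852 and 0 CPM in the double KO, and 1.34, 0.213, 1.06 and 1.22 CPM in WT. Double KO libraries lay below all WT libraries, whereas 1 Dmrt5 KO library exceeded WT replicate 2. On the log2 scale the fold change of Drc7 was -4.08 ± 0.63 in the double KO (adjusted p = 0.000638) and -2.52 ± 0.57 in Dmrt5 KO (adjusted p = 0.0428), by edgeR. The Drc7 values rested on 17 counts in all Dmrt5 KO libraries and 6 in all double KO libraries, against 111 in WT. The pooled ratio to WT was 0.159 in Dmrt5 KO (counting interval 0.0894 to 0.266) and 0.0506 in the double KO (0.0182 to 0.114). Drc7 entered through 3 WT and 3 Dmrt3 KO libraries and had 10 counts in no other library. The Dmrt5 KO call was lost without a filter on low counts (adjusted p = 0.0543) and was held in only 5 of the 18 fits that left out 1 library. Drc3 (chr11:60353329-60394341) averaged 4.21 ± 0.47 CPM in Dmrt3 KO, 2.99 ± 0.38 CPM in Dmrt5 KO, 2.85 ± 0.27 CPM in the double KO and 4.30 ± 1.0 CPM in WT. Its log2 fold change in the double KO was -0.60 ± 0.17 with an edgeR adjusted p of 0.0498, and it was called in only 2 of the 18 fits that left out 1 library. Drc1 was not called, at 2.04 ± 0.74 CPM in the double KO and 2.55 ± 1.09 CPM in WT.

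Among the microtubule inner proteins, 4 members that fell are described here, besides Tekt2. Inner proteins were not counted as a class, so no share of them is given. Of all 25 Cfap members, 3 were called lower in Dmrt5 KO, where 0.69% of all tested genes were. For the double KO 7 were, where 3.81% of all tested genes were. Cfap52 (ENSMUSG00000020904, chr11:67924806-67965651) held 2.59, 2.12, 1.32, 1.82 and 1.16 CPM in Dmrt3 KO, 0.198, 0.58, 0.239 and 0.3 CPM in Dmrt5 KO, 0.147, 0.183, 0.222, 0.341 and 0.273 CPM in the double KO, and 2.62, 0.587, 1.95 and 2.6 CPM in WT. Both genotypes without Dmrt5 lay below WT in every library, although the highest Dmrt5 KO library and WT replicate 2 nearly met. Cfap52 had 10 or more counts in 4 WT, 5 Dmrt3 KO, 2 Dmrt5 KO and 0 double KO libraries. The log2 fold change of Cfap52 was -2.55 ± 0.44 in Dmrt5 KO (adjusted p = 0.0078) and -3.03 ± 0.42 in the double KO (adjusted p = 0.000249), by edgeR. Cfap52 shares exon bases with the opposite-strand gene 9130017K11Rik, and the kit does not mark strand, so reads from the shared part cannot be assigned.

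Cfap126 (ENSMUSG00000026649, chr1:171113918-171126967) held 7.41, 9.37, 4.88, 4.97 and 3.41 CPM in Dmrt3 KO, 3.26, 2.74, 2.15 and 1.83 CPM in Dmrt5 KO, 2.2, 1.46, 2.05, 1.62 and 0.936 CPM in the double KO, and 5.94, 4.48, 7.49 and 3.99 CPM in WT. It was, at 2.20 RPKM, among the more abundant members that fell, and had 10 or more counts in all 18 libraries. All libraries of both Dmrt5 KO and the double KO lay below all of WT. For Cfap126 the log2 fold change was -1.73 ± 0.31 in the double KO (adjusted p = 0.00192), by edgeR. In Dmrt5 KO it was -1.14 ± 0.32, not called at an edgeR adjusted p of 0.122.

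Cfap161 (ENSMUSG00000011154, chr7:83774101-83794880) held 0.877, 1.02, 0.271, 0.823 and 0.259 CPM in Dmrt3 KO, 0, 0, 0 and 0.15 CPM in Dmrt5 KO, 0, 0, 0.0445, 0.0426 and 0.039 CPM in the double KO, and 0.437, 0.267, 0.889 and 0.376 CPM in WT. It was nearly absent from every library without Dmrt5 and entered through 3 WT and 3 Dmrt3 KO libraries. The double KO libraries held 3 counts in all, against 52 in WT, a ratio of 0.0540 (95% counting interval 0.0108 to 0.167). Cfap161 was called in the double KO by edgeR (adjusted p = 0.00626) and not in Dmrt5 KO (adjusted p = 0.0603), where the ratio of 5 counts to 52 was 0.0998 (0.0311 to 0.248).

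Cfap45 (ENSMUSG00000026546, chr1:172520801-172545870) averaged 2.10 ± 0.59 CPM in Dmrt3 KO, 1.06 ± 0.27 CPM in Dmrt5 KO, 1.05 ± 0.20 CPM in the double KO and 2.18 ± 0.44 CPM in WT. The highest double KO library, at 1.38 CPM, lay below the lowest WT library, at 1.59 CPM. The log2 fold change of Cfap45 in the double KO was -1.04 ± 0.26 (edgeR adjusted p = 0.0185), and the call was lost without WT replicate 1 (adjusted p = 0.0583) or WT replicate 3 (adjusted p = 0.0537). In Dmrt5 KO the log2 fold change was -1.05 ± 0.27 with an edgeR adjusted p of 0.0822. Cfap45 shares exon bases with the opposite-strand gene 4933439K11Rik, with the same limit as for Cfap52. Cfap20, the most abundant inner protein, averaged 96.4 ± 8.0 CPM in Dmrt3 KO, 91.1 ± 10.2 CPM in Dmrt5 KO, 82.9 ± 15.3 CPM in the double KO and 85.3 ± 23.5 CPM in WT.

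**Figure D2:**
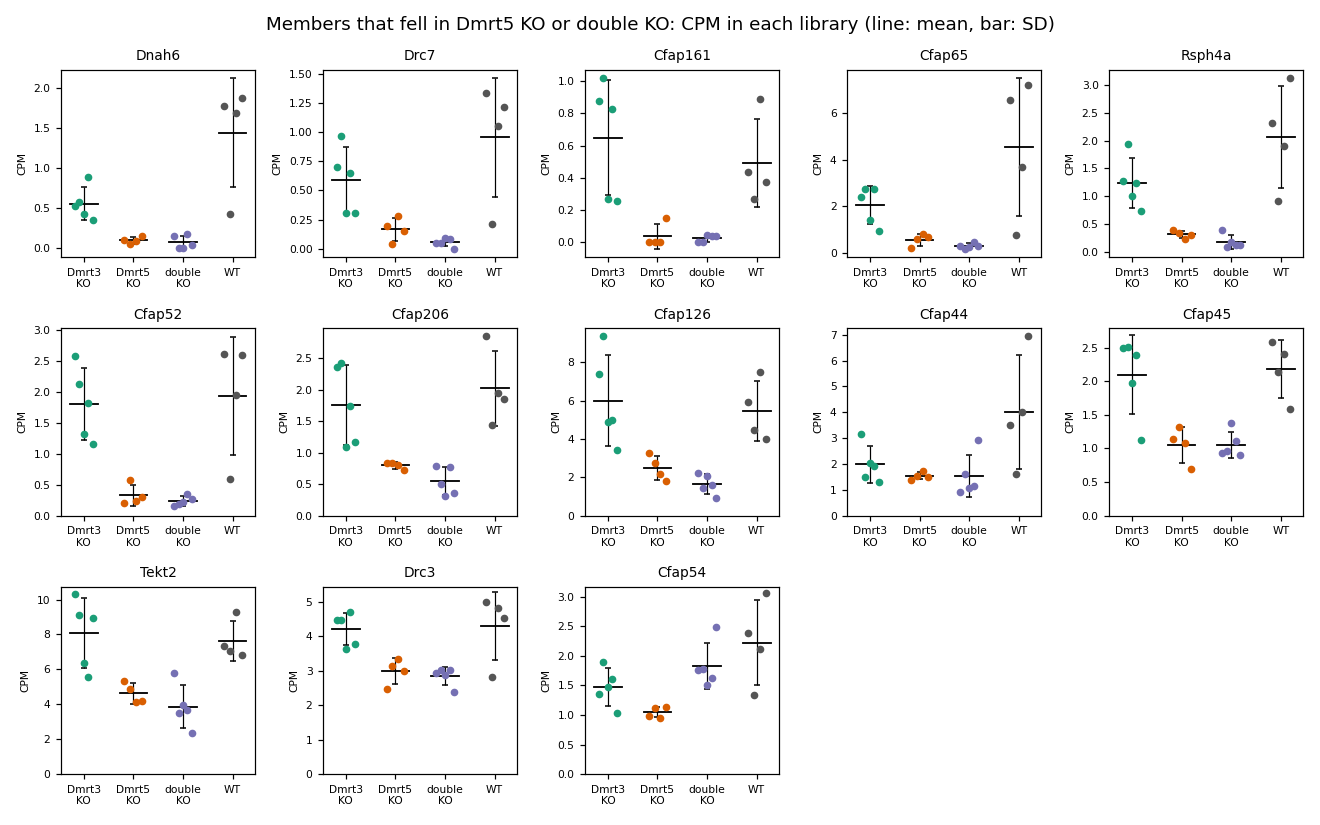
CPM (y axis, 1 scale per gene) of the 13 members that fell, in each library of Dmrt3 KO, Dmrt5 KO, the double KO and WT (points), with mean (line) and SD (bar). WT replicate 2 is the second WT point: for Dnah6 it stands at 0.427 CPM, where the other WT libraries hold 1.69 CPM or more.

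Of the tektins, which form filaments inside the doublets, Tekt2 fell in the double KO. Tekt2 (ENSMUSG00000028845, chr4:126322121-126325688) held 10.3, 9.11, 6.39, 5.56 and 8.97 CPM in Dmrt3 KO, 5.34, 4.85, 4.11 and 4.2 CPM in Dmrt5 KO, 5.77, 3.52, 3.96, 3.66 and 2.38 CPM in the double KO, and 7.36, 7.04, 9.31 and 6.8 CPM in WT. Dmrt5 KO and double KO libraries all lay below WT, and 1 double KO library overlapped Dmrt3 KO. Tekt2's log2 fold change was -0.98 ± 0.23 in the double KO (edgeR adjusted p = 0.0127), and without WT replicate 3 the call was lost (adjusted p = 0.0507). In Dmrt5 KO it was -0.72 ± 0.24 (edgeR adjusted p = 0.219). Tekt2 shares exon bases with the opposite-strand gene Gm12945. Tekt5 ran the other way without a call, at 1.08, 0.822, 0.934, 0.298 and 0.702 CPM in the double KO and 0.403, 0.213, 0.381 and 0.232 CPM in WT, with a log2 fold change of 1.29 ± 0.45 and an edgeR adjusted p of 0.111. The double KO and WT libraries of Tekt5 overlapped through 1 double KO library. Tekt1 averaged 4.19 ± 1.11 CPM in the double KO and 5.63 ± 1.19 CPM in WT and was not called. Tekt4, named for its place near the threshold, had 10 counts in no Dmrt5 KO or double KO library and was not called.

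Among members of the central pair, Cfap65 fell in both Dmrt5 KO and the double KO, and Cfap54 fell in Dmrt5 KO. Cfap65 (ENSMUSG00000047021, chr1:74902071-74935599) held 2.41, 2.74, 1.39, 2.74 and 0.948 CPM in Dmrt3 KO, 0.198, 0.58, 0.797 and 0.69 CPM in Dmrt5 KO, 0.293, 0.183, 0.267, 0.469 and 0.273 CPM in the double KO, and 6.58, 0.747, 3.68 and 7.21 CPM in WT. The WT libraries spread widely, and WT replicate 2 lay among the Dmrt5 KO libraries but above every double KO library. The log2 fold change of Cfap65 was -2.98 ± 0.55 in Dmrt5 KO (adjusted p = 0.0124) and -3.92 ± 0.55 in the double KO (adjusted p = 0.000249), by edgeR. The Dmrt5 KO call was lost without Dmrt5 KO replicate 2 (adjusted p = 0.059). Cfap65 shares exon bases with the antisense gene Gm15841, whose reads cannot be told apart from its own.

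Cfap54 (ENSMUSG00000020014, chr10:92775619-93081618) held 1.36, 1.9, 1.47, 1.61 and 1.03 CPM in Dmrt3 KO, 0.989, 1.12, 0.957 and 1.14 CPM in Dmrt5 KO, 1.76, 1.78, 1.51, 1.62 and 2.5 CPM in the double KO, and 2.38, 1.33, 2.12 and 3.07 CPM in WT. Dmrt5 KO libraries lay below those of WT and also below those of the double KO. Relative to WT its log2 fold change was -1.09 ± 0.25 in Dmrt5 KO (edgeR adjusted p = 0.0463) and -0.29 ± 0.23 in the double KO (edgeR adjusted p = 0.628). The Dmrt5 KO call of Cfap54 was held in only 5 of the 18 fits that left out 1 library and was lost without a filter on low counts (adjusted p = 0.0865). The interaction, which is the Dmrt5 effect in embryos without Dmrt3 less the Dmrt5 effect in embryos with it (log2 scale), was 1.4 ± 0.34 for Cfap54 with an edgeR adjusted p of 0.162, while DESeq2 gave 1.41 with an adjusted p of 0.0253. Cfap46, also of the central pair, was not called in any comparison.

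Of the members tied to the inner arms and spokes by other routes, Cfap206 and Cfap44 fell in the double KO. Cfap206 (ENSMUSG00000028294, chr4:34688559-34730206), a protein of the spoke base whose promoter is printed above, held 2.37, 2.43, 1.08, 1.75 and 1.16 CPM in Dmrt3 KO, 0.841, 0.829, 0.797 and 0.72 CPM in Dmrt5 KO, 0.782, 0.502, 0.311, 0.767 and 0.351 CPM in the double KO, and 2.85, 1.44, 1.95 and 1.85 CPM in WT. Both genotypes without Dmrt5 lay below both others in every library. Relative to WT its log2 fold change was -1.90 ± 0.32 in the double KO (adjusted p = 0.00119) and -1.35 ± 0.33 in Dmrt5 KO (adjusted p = 0.0603, not called), by edgeR. Cfap44 (ENSMUSG00000071550, chr16:44394796-44482428), part of the tether of an inner arm, held 3.16, 1.5, 2.05, 1.92 and 1.29 CPM in Dmrt3 KO, 1.38, 1.53, 1.71 and 1.5 CPM in Dmrt5 KO, 0.929, 1.6, 1.07, 1.15 and 2.93 CPM in the double KO, and 3.49, 1.6, 4.02 and 6.95 CPM in WT. Double KO and WT libraries of Cfap44 overlapped at double KO replicate 5 and WT replicate 2. Its log2 fold change was -1.39 ± 0.38 in the double KO (edgeR adjusted p = 0.0363), and the call was lost in 6 of the fits that left out 1 library, with WT replicates 1, 3 or 4 or double KO replicates 1, 2 or 3 absent (adjusted p = 0.0544 to 0.164). Cfap100, another inner arm protein, averaged 3.72 ± 1.29 CPM in the double KO and 2.59 ± 0.44 CPM in WT, without a call, and shares exon bases with Zxdc on the opposite strand.

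Members above 4 RPKM were not called. The 3 highest, Cfap298, Cfap36 and Cfap20, had log2 fold changes of -0.11, 0.23 and -0.04 in the double KO, each with a standard error between 0.17 and 0.27. Of the 12 members at 1 RPKM or more, 0 were called in Dmrt5 KO and 2, Cfap126 and Tekt2, in the double KO. Of the 37 under 1 RPKM, 6 fell with Dmrt5 lost and 10 with both genes lost. The share called among all genes of like level was not computed. The split uses the mean over all 18 libraries, KO libraries included, so a fall itself lowers a member's level. The median log2 fold change of the 12 was 0.01 for Dmrt5 KO and, for the double KO, 0.06. Cfap298 held 41.3, 34.7, 43.7, 28.5 and 18.3 CPM in the double KO, against 28.5, 54.8, 39.5 and 20.6 CPM in WT. Cfap36 averaged 63.3 ± 11.8 CPM in the double KO and 53.8 ± 11.9 CPM in WT. A member that is not called may still differ, and only relative levels were measured.

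**Figure D3:**
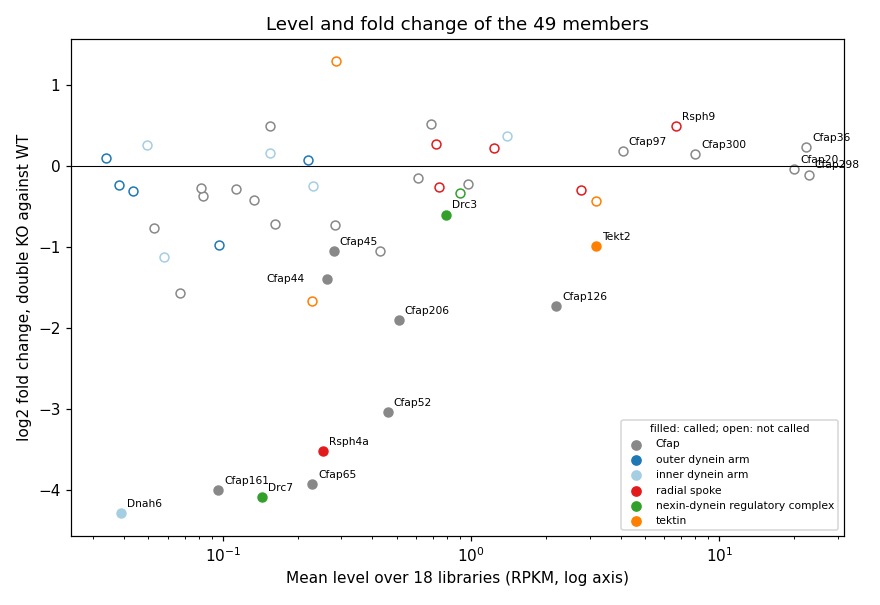
Mean level of each of the 49 members over the 18 libraries (x axis, RPKM, log axis) against its log2 fold change in the double KO relative to WT (y axis), coloured by role and filled where called. The 12 filled points lie at or under 3.18 RPKM, and the members above 4 RPKM lie between -0.11 and 0.49 on the y axis.

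In Dmrt3 KO, where Dmrt5 is intact, 0 members were called by edgeR and 0 by DESeq2, and 7 had an unadjusted p under 0.05, all lower. At that p, 911 of the 16236 genes were lower and 252 higher. The lowest p-values after Dnah6 belonged to Cfap46 (log2 fold change -1.05 ± 0.37), Cfap44 (-1.02 ± 0.38) and Dnah9 (-0.83 ± 0.31), with edgeR adjusted p-values of 0.586, 0.623 and 0.623. Every member's Dmrt3 KO libraries overlapped those of WT, where 1.67% of all tested genes were lower and 0.696% higher without overlap. In Dmrt5 KO 9 members were lower than WT in every library (4.34% of all genes were) and 0 higher (4.39%). The 9 were Rsph4a, Dnah6, Cfap52, Cfap54, Cfap206, Cfap161, Cfap45, Cfap126 and Tekt2. In the double KO 10 members were lower than WT in every library, where 3.4% of all genes were, namely Rsph4a, Cfap52, Cfap65, Dnah6, Drc7, Cfap206, Cfap126, Cfap161, Tekt2 and Cfap45. DESeq2 called 12 members lower in Dmrt5 KO, where 228 of the 16236 genes were called lower, against 112 by edgeR. An edgeR fit restricted to Dmrt5 KO and WT called 1 of 44 members lower, Rsph4a, where 52 of 15713 genes were.

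The double KO was also set against each single KO. Against Dmrt3 KO 10 members fell and 0 rose, where 1.96% of all genes were called lower and 1.74% higher, and all 10 were also called against WT. They were Cfap52, Rsph4a, Cfap126, Cfap161, Cfap206, Drc7, Cfap65, Tekt2, Dnah6 and Cfap45. The log2 fold change relative to Dmrt3 KO was -2.91 ± 0.41 for Cfap52 (adjusted p = 0.000322) and -1.86 ± 0.30 for Cfap126 (adjusted p = 0.000954), by edgeR. Against Dmrt3 KO 10 members were lower and 1, Dnah1, higher in every library, where 2.51% and 2.29% of all genes were. Against Dmrt5 KO 0 members were called by edgeR, where 0.32% of all genes were called lower and 0.0123% higher, and 2 members, Cfap54 and Cfap100, had an unadjusted p under 0.05, both higher, where 265 of the 16236 genes were higher and 499 lower at that p. Cfap54 was also higher in every double KO library than in every Dmrt5 KO library, where 0.407% of all genes were higher and 1.37% lower. The interaction called 0 members by edgeR, where 0.142% of all genes were called lower and 0 higher, and 3 members had an unadjusted p under 0.05. These were Cfap54, Dnah7b and Dnah9, all positive, as were 1200 of the 16236 genes at that p, a similar share.

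Genes of the axoneme that carry other names were counted in the same fit. Of 35 tested partners, 0 were called in Dmrt3 KO, 3 fell in Dmrt5 KO, 11 fell in the double KO, and 0 rose. Among all tested genes 0.00616% were called in each direction in Dmrt3 KO. In Dmrt5 KO 0.69% were called lower and 0.339% higher, and in the double KO 3.81% and 2.42%. Hydin, a giant protein of the central pair, held 0.297, 0.249, 0.319 and 0.27 CPM in Dmrt5 KO and 0.44, 0.228, 0.489, 0.383 and 0.39 CPM in the double KO, against 2.22, 0.694, 1.78 and 1.62 CPM in WT. Wdr63, a dynein intermediate chain of the inner arms, held 0, 0, 0.0797 and 0.09 CPM in Dmrt5 KO, against 1.38, 0.0534, 1.23 and 1.71 CPM in WT, so WT replicate 2 lay within Dmrt5 KO. Dnajb13, a radial spoke protein, fell by 2.21 ± 0.47 on the log2 scale in Dmrt5 KO and by 2.64 ± 0.45 in the double KO (edgeR adjusted p = 0.0279 and 0.0015). Of 13 tested dynein arm assembly factors, Zmynd10 fell in the double KO, at 2.39 ± 0.87 CPM against 5.29 ± 1.54 CPM in WT. Of 29 genes of intraflagellar transport and the BBSome, which primary cilia also use, 0 were called in any comparison, with a median log2 fold change of -0.05 for Dmrt3 KO, -0.01 for Dmrt5 KO and 0.08 for the double KO.

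Regulators of the motile cilia programme were counted in the same fit. Of 14 regulators, 0 were called in Dmrt3 KO and 7 fell in Dmrt5 KO (Mcidas, Foxj1, Ccno, Gmnc, Deup1, Trp73 and Cdc20b). Over all tested genes, 0.69% were called lower in Dmrt5 KO, while for the double KO 3.81% were called lower and 2.42% higher. All 7 regulators also fell in the double KO, where Foxn4 rose, and the other 6 were called in neither genotype. Among these, E2f5 averaged 56.0 ± 2.7 CPM in Dmrt5 KO and 57.8 ± 8.0 CPM in the double KO, against 49.4 ± 10.3 CPM in WT. Rfx3 averaged 68.8 ± 20.1 CPM in the double KO and 63.3 ± 14.1 CPM in WT. Foxj1 held 24.1, 14.7, 19.2 and 21.9 CPM in Dmrt5 KO and 15.7, 18.7, 17.8, 10.6 and 11.8 CPM in the double KO, against 48.7, 35.8, 55 and 40.5 CPM in WT. Mcidas held 1.73, 0.788, 1.87 and 1.92 CPM in Dmrt5 KO and 0.0978, 0.183, 0.534, 0.767 and 0.195 CPM in the double KO, against 9.98, 5.34, 6.64 and 10 CPM in WT. For Foxj1 and Mcidas WT libraries stood above all libraries of both genotypes, WT replicate 2 included.

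Choroid plexus epithelium, which carries motile cilia and adjoins the cortex, was followed by a list of markers. Of 10 tested markers, 0 were called in Dmrt3 KO, 5 fell in Dmrt5 KO (Kcne2, Ttr, Slc4a5, Clic6 and Folr1) and 7 in the double KO. Over all tested genes, 0.69% were called lower in Dmrt5 KO, while for the double KO the share was 3.81%. The summed level of all 13 markers ran between 177 and 436 CPM in Dmrt3 KO, 82.7 and 108 CPM in Dmrt5 KO, 67.7 and 154 CPM in the double KO, and 159 and 365 CPM in WT. Otx2, a transcription factor on that list, was not called and ran the other way, at 67.8 ± 6.0 CPM in Dmrt5 KO and 80.3 ± 26.4 CPM in the double KO, against 55.4 ± 9.3 CPM in WT, so it held most of the double KO sum. Kl averaged 0.256 CPM in Dmrt5 KO and 0.214 CPM in the double KO, against 0.187 CPM in WT. Ttr, the defining marker, held 5.39, 0.912, 5.5 and 10.1 CPM in Dmrt5 KO and 4.65, 0.548, 0.445, 0.639 and 0.195 CPM in the double KO, against 235, 50.1, 202 and 123 CPM in WT. WT replicate 2 was the lowest WT library for Ttr as it was for Dnah6, Drc7, Rsph4a and Cfap52, among others. It was not the lowest for Cfap126 or Tekt2, which also fell. Of 12 tested markers of the cortical hem, the neighbouring signalling centre, 2 fell in Dmrt5 KO, where 0.69% of all genes were called lower, and 9 in the double KO, where 3.81% were. The summed hem markers were highest in WT replicate 2, at 519 CPM, against 350 to 417 CPM in the other WT libraries. The part of choroid plexus or hem tissue in the members' changes was not tested.

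**Figure D4:**
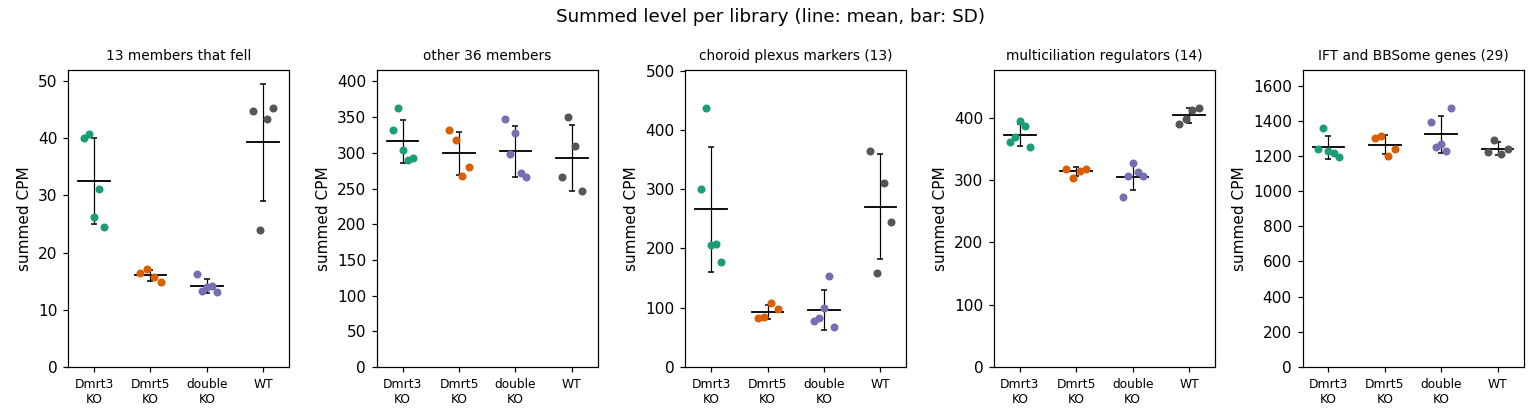
Summed CPM per library (points; line: mean, bar: SD) of the 13 members that fell, the other 36 members, 13 choroid plexus markers, 14 regulators and 29 genes of intraflagellar transport (IFT) and the BBSome, by genotype. The first panel was chosen by its values and is a description: it runs between 13.1 and 17.1 CPM in the 9 libraries of Dmrt5 KO and the double KO, and WT replicate 2 stands at 24.0 CPM. The other 36 members overlap between all genotypes.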

How the data were processed

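Per the labels' protocols, the RNeasy mini kit served for RNA extraction and Illumina's TruSeq v2 RNA kit, which does not mark strand, for the libraries. The files hold whole-number read counts per gene, deposited by the authors without normalisation. The build is mm10 per the submitters' processing notes, which also list STAR 2.3.0e, featureCounts 1.4.6-p1, DESeq2 1.8.2, FastQC 0.10.1, CASAVA 1.8.2 and bcl2fastq. Which annotation and strand setting were used, and how reads with several matches were treated, is not given in the sources used here. Each file lists 38355 genes and 5 summary entries, which were 0 throughout.

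GENCODE M21, which has the assembly of mm10, gave symbols, biotypes, coordinates and exon lengths for 36602 genes; those without a match held 0.397% of the counts. Under these symbols no Dnai gene exists, and its genes carry older names. Counts were analysed in R 4.3.3 with edgeR 4.0.16. The function filterByExpr, at a minimum count of 10, left 16236 genes. After scaling by the trimmed mean of M-values, a quasi-likelihood fit took 1 mean per genotype over all 18 libraries. CPM and RPKM were computed here. Tests were two-sided with Benjamini-Hochberg adjustment over the 16236 genes, and standard errors came from the fold change and its F statistic. The fit was tested on simulated data. Ratios of pooled counts have exact binomial 95% intervals.

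The alternatives were DESeq2 1.42.0, its size factors, other filters on low counts, only the genotypes compared, the replicate number as a block, gene-length slope as a covariate, each library left out, and RefSeq symbols. The text names members called against WT (beyond 10 in a direction, the largest changes), the lowest 4 p-values where fewer than 4 were called, the 3 most abundant members of each role and those nearest the threshold; a few others were chosen after their values were seen, namely Dnah5, Dnah8, Cfap61, Cfap300 and Rsph3b. Members, lists and rule were chosen with earlier results of these data known. Some marker lists are not reported here.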

Additional observations from a re-analysis of the deposited data

Results flagged for a closer look

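In 120 sets of the libraries of 1 genotype for 1 named member, 9 held a library that stood apart by Dixon's criterion. Its rate of about 1 in 20 holds for independent normal values. These sets share the same 18 libraries and some lie near 0 counts, so the 9 cannot be set against that rate. Dnah6 stood at 0.427 CPM in WT replicate 2, where the other WT libraries held 1.69 to 1.88 CPM. Dnah11 stood at 0.0534 CPM in the same library, where the others held 1.14 to 1.31 CPM. Dnah2 stood at 5.85 CPM in double KO replicate 5 (others 2.80 to 3.33 CPM) and at 1.81 CPM in Dmrt3 KO replicate 5 (others 3.23 to 3.77 CPM). Cfap54 stood at 2.5 CPM in double KO replicate 5 (others 1.51 to 1.78 CPM), and Drc3 at 2.38 CPM in the same library (others 2.89 to 3.02 CPM). Rsph4a stood at 0.391 CPM in double KO replicate 1, against 0.0913 to 0.178 CPM in the other double KO libraries and still below every WT library. Cfap161 stood at 0.15 CPM in Dmrt5 KO replicate 5, where the other Dmrt5 KO libraries held 0, and a lone library above 0 always meets the criterion. Cfap36 stood at 77.2 CPM in Dmrt3 KO replicate 2 (others 56.4 to 60.3 CPM).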

How the results depend on the processing

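No called value of a named member changed sign under the alternatives run. The count of members lower in Dmrt5 KO, 6, became 12 with DESeq2, 12 with length slope as a covariate and 1 with only the genotypes compared. All genes called lower numbered 112 in the fit reported above and 228, 289 and 52 in these fits. At a mean count of at least 50 the count of members was 0, but none of the 6 was among the 22 members tested. The count lower in the double KO, 12, became 5 with only the genotypes compared and 3 at a mean count of at least 50, and lower relative to Dmrt3 KO, 10, became 5 and 2. All genes called lower went from 619 to 237 and 289, and relative to Dmrt3 KO from 318 to 210 and 213. At that mean count only Cfap126, Cfap44, Drc3 and Tekt2 of the 12, and only Cfap126 and Tekt2 of the 10, were tested. The count higher in the double KO, 0, became 1 with DESeq2 (Dnah1), 1 with length slope (Dnah1) and 1 with the replicate block (Tekt5). Higher relative to Dmrt3 KO became 1 with DESeq2 (Dnah1), and for the interaction 1 (Cfap54). Fewer libraries or genes enter the restricted fits; the cause of the other shifts was not tested. Leaving out 1 library moved the count lower in Dmrt5 KO between 3 (without Dmrt5 KO replicate 2) and 11 (without WT replicate 2), lower in the double KO between 8 (without WT replicate 3) and 16 (without WT replicate 2), lower relative to Dmrt3 KO between 9 and 12, higher in the double KO and the interaction each between 0 and 1, and the others stayed at 0. The Dmrt5 KO calls of Cfap54 and Drc7 were held only without WT replicate 2, Dmrt3 KO replicate 2 or 5, or double KO replicate 4 or 5, and the double KO call of Drc3 only without WT replicate 2 or double KO replicate 4. With only the genotypes compared, Cfap52, Cfap54 and Cfap65 lost their Dmrt5 KO call and Cfap44, Cfap45, Drc3 and Tekt2 their double KO call, while Dnah6, Drc7 and, for the double KO, Cfap161 did not pass the filter on low counts and were not tested. RefSeq symbols gave 50 members, adding Cfap20dc and Cfap410 and dropping Rsph10b; Cfap20dc was called lower in the double KO (log2 fold change -0.43, edgeR adjusted p = 0.0475). Replicate numbers are shared between genotypes, and same-numbered libraries deviated together at r over 0.1 in 15 of 24 pairs (r from -0.36 to 0.70; median 0.24, against -0.14 for different numbers), while 4 of 18 libraries correlated best with their own number. The numbers were not taken to pair the libraries, since not every pair passed 0.1, but this cannot exclude batches shared by number. Deviations were taken from genotype means, so the medians for same and different numbers are not independent. With the replicate block 5 members were lower in Dmrt5 KO, and 10 were lower in the double KO: by edgeR, Cfap54 (adjusted p = 0.0598) and Drc7 (0.0677) lost their Dmrt5 KO call, Cfap44 (0.0624) and Drc3 (0.0899) their double KO call, and Cfap206 gained one in Dmrt5 KO (0.0339). Of the 13 members that fell, 5 of the 12 in the double KO had under 10 counts in every double KO library, so depth limits the size of their change.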
